A study of Mus musculus with 4 samples.

Results

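The genes described here are those of cholesterol (sterol) synthesis and fatty acid synthesis, with the regulators that set their transcription, a sterol carrier and a phosphatidate phosphatase. They were chosen by name: 36 gene names were matched to the symbols of the deposited count table, and 35 had a row, among 24907 genes in all. The remaining name, Sc4mol, is an older symbol of Msmo1, which was present. The sterol arm holds 18 genes, the fatty acid arm 10 and the group of regulators 5, and Stard4 and Lpin1 stand apart. The study measured RNA in ASZ001, a mouse basal cell carcinoma line, in 4 libraries: 2 from cells with a doxycycline-inducible vector that carries c-FOS and 2 from cells whose inducible vector was empty. Both kinds of cell received doxycycline, and no c-FOS vector cells without doxycycline were analysed, so the induction of c-FOS and other differences between the kinds of cell cannot be told apart. The labels do not say whether the libraries of a group are from separate cultures, and p-values therefore reflect the spread among these 4 libraries alone, which may be technical. In bulk RNA, a change in the share of cells of a type and a change in RNA per cell cannot be told apart either.

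Cholesterol is built from acetyl-CoA through mevalonate, farnesyl diphosphate and squalene to lanosterol, which is then trimmed to cholesterol. Fatty acids are built from the same acetyl-CoA and are lengthened and desaturated afterwards. Transcription of both arms is driven by the sterol regulatory element-binding proteins (SREBPs), membrane-bound factors that the escort protein SCAP carries from the endoplasmic reticulum to the Golgi for cleavage, and that INSIG proteins hold back when sterols are plentiful. SREBP2, encoded by Srebf2, acts mainly on sterol genes, and SREBP1, encoded by Srebf1, mainly on fatty acid genes. In the epidermis keratinocytes make cholesterol and fatty acids for the skin barrier, and cholesterol also binds components of the Hedgehog pathway, which drives basal cell carcinoma.

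The libraries held between 28405433 and 32465409 counts. Fos itself, the gene of the vector, was at 297 and 313 CPM (counts scaled to a common library size) in the c-FOS libraries and at 0.404 and 0.351 CPM in the control libraries, which checks the labels. Basal keratinocyte markers were abundant in all libraries: the summed level of 8 of them was 15108 and 15402 CPM with c-FOS, against 31370 and 31232 CPM in control, and 7 of the 8 were lower. The other, Itga6, was higher (log2 fold change 0.57). For comparison with the marker counts here, 33.8% of all genes tested were called higher and 33.3% lower. Of the cell types richest in fatty acid synthesis, adipocytes and sebocytes left little trace. The 9 adipocyte markers summed to 0 and 0.0323 CPM in the c-FOS libraries and to 0.0673 and 0.0319 CPM in the control libraries, and of the sebocyte markers Awat1, Elovl3, Dgat2l6 and Pparg were at 0 throughout. The sebocyte list summed to 1510.2 and 1500.1 CPM with c-FOS, against 700.2 and 748 CPM in control, nearly all of it Fasn and Plin2, which keratinocytes also express; its other members each stayed at or below 2.26 CPM. Fibroblast markers summed to 17.7 and 19.2 CPM with c-FOS, against 5.45 and 5.68 CPM in control, with 3 of 4 tested higher and Thy1 at 0 in all libraries. Most of that sum was Pdgfra (11.6 CPM with c-FOS and 4.24 CPM in control). The other called genes were Col1a2 (3.45 CPM with c-FOS and 0.539 CPM in control) and Pdgfrb (2.69 CPM and 0 CPM). Col1a1 did not pass, and Lum, Dcn and Col3a1 were below 1 CPM throughout. Macrophage and leukocyte markers summed to 41.6 and 45.0 CPM with c-FOS, against 18.9 and 17.0 CPM in control, with 3 of 3 tested higher and Cd3e at 0 in all libraries. Most of the difference was 1 gene, Csf1r (18.4 CPM with c-FOS and 0.314 CPM in control). Also called higher were Cd68 (14.3 CPM with c-FOS and 11.1 CPM in control) and Cd14 (10.3 CPM and 6.47 CPM). Ptprc, Adgre1, Itgam and Lyz2 were at or below 0.144 CPM in every library. These marker genes are named after their values were seen. The part that these markers have in the results on lipid genes was not tested.

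Neither arm moved as a whole with c-FOS; each was split. Of the 34 genes with enough reads to be tested, edgeR's quasi-likelihood test called 13 higher and 14 lower with c-FOS at a Benjamini-Hochberg adjusted p of 0.05, adjusted over all genes tested, and left 7 uncalled. The 27 called genes are 79.4% of those tested, where 67.1% of all 12791 genes tested were called, 33.8% as higher and 33.3% as lower. The changes were modest: the median absolute log2 fold change was 0.25, against 0.32 over all genes tested, and 1 of the 34 genes (Tm7sf2) changed by 2-fold or more, where 15.5% of all genes tested did. The c-FOS and control libraries did not overlap for 31 of the 34 genes, against 83.6% of all genes tested. All 5 SREBP regulators were called and 4 of them were lower. The calls of Scap and Insig2 were lost in 4 and 3 of 12 alternative settings of the analysis. In the sterol arm the enzymes that trim the sterol ring were mostly higher. In the fatty acid arm Fasn and Acaca, which make the chain, were higher, but the call of Acaca was lost in 6 of the 12 alternatives. The enzymes of that arm that elongate the chain or further desaturate it were lower or did not pass.

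**Figure D1:**
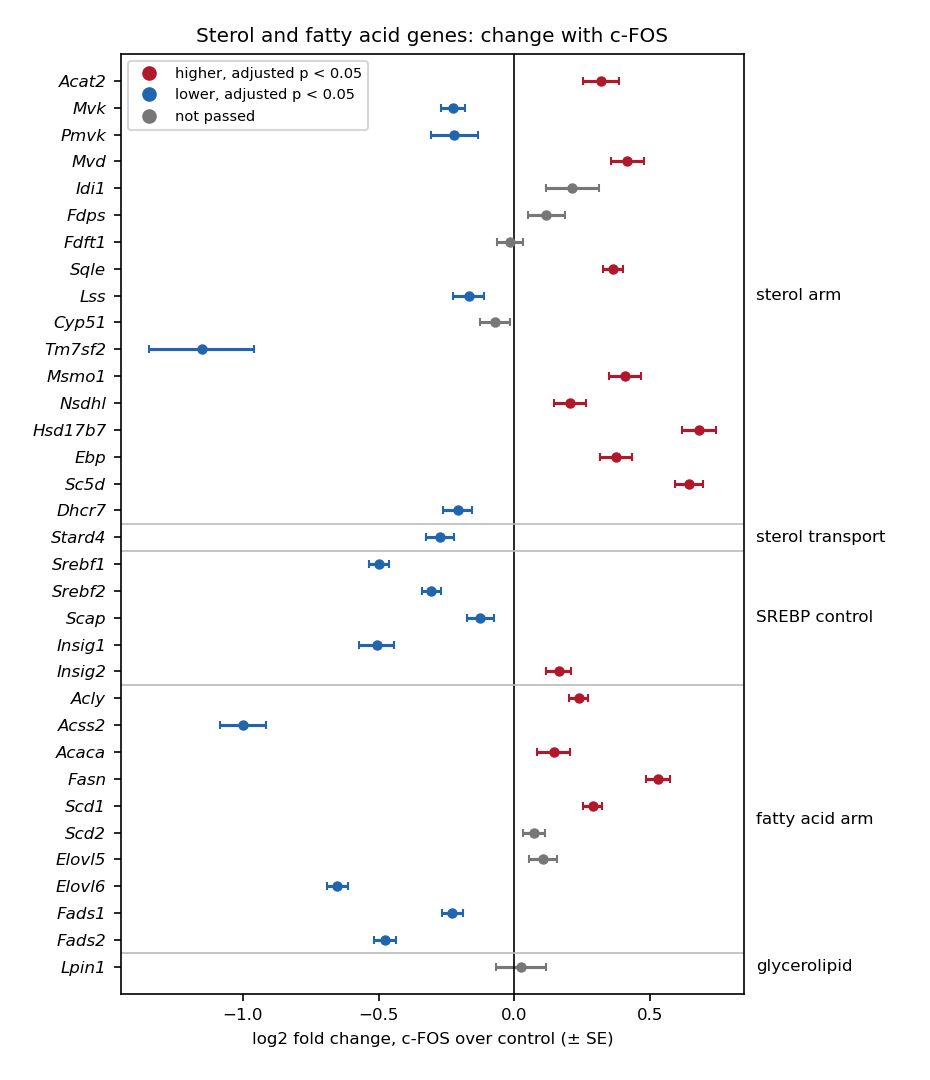
Log2 fold change (c-FOS over control, horizontal axis) of the 34 tested genes, one per row, with standard error bars; red points were higher, blue points lower and grey points did not pass an adjusted p of 0.05. The points run from -1.15 (Tm7sf2) to 0.68 (Hsd17b7), and both arms hold points on both sides of 0.

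Hmgcs1, which encodes the HMG-CoA synthase that feeds the mevalonate pathway, could not be assessed. Its row listed 0 counts in all 4 libraries, although the genes upstream and downstream of it were expressed. The table places Hmgcs1 on the minus strand, whereas the GENCODE M21 annotation of the later mouse build places it on the plus strand, and it was the only one of the 35 genes whose strand differed. Among 20466 protein-coding genes compared in this way, 108 had the other strand in the table, and 70 of these (64.8%) were at 0 in all libraries, against 24.7% of the genes with the same strand. No level or fold is given for Hmgcs1.

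The regulators were lower, with 1 exception. Srebf1 had 161 and 165 CPM in the c-FOS libraries, against 232 and 229.8 CPM in the control libraries. It fell by 0.50 ± 0.04 (SE) on the log2 scale, and edgeR's quasi-likelihood adjusted p was 3.58e-08. Srebf2, per kilobase of gene model more abundant than Srebf1 (84.6 CPM per kilobase against 37.9 with c-FOS, and 105 against 53.6 in control), had 386 and 383 CPM in the c-FOS libraries, against 478 and 474 CPM in the control libraries. It fell by 0.31 ± 0.03 on the log2 scale, and for both genes each c-FOS library lay below each control library. Per kilobase of gene model, the ratio of Srebf1 to Srebf2 was 0.441 and 0.456 in the c-FOS libraries and 0.512 in each control library.

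The INSIG genes went opposite ways. Insig1, which is itself a classical SREBP target, had 45.8 and 42.1 CPM in the c-FOS libraries, against 58.2 and 66.5 CPM in the control libraries, and fell by 0.51 ± 0.06 (SE) on the log2 scale (edgeR quasi-likelihood adjusted p = 9.49e-06). Insig2, the INSIG gene that does not depend on SREBP in most tissues, had 65.7 and 66.2 CPM in the c-FOS libraries, against 57.6 and 60.1 CPM in the control libraries, a log2 fold change of 0.16 ± 0.05 (edgeR adjusted p = 0.00598). The ratio of Insig1 to Insig2 per kilobase was therefore 0.709 and 0.647 with c-FOS, against 1.03 and 1.13 in control, with no overlap between the groups. The call of Insig2 was lost when only library totals scaled the counts (log2 fold change 0.03), with upper-quartile factors (0.10) and without c-FOS replicate 2 (edgeR adjusted p = 0.0702). Scap had 111 and 112 CPM in the c-FOS libraries, against 129 and 115 CPM in the control libraries, and fell by 0.13 ± 0.05. That call was lost without control replicate 1 (-0.04), without c-FOS replicate 1 (-0.12) or replicate 2 (-0.13), and in DESeq2 (adjusted p = 0.111).

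The short promoter regions of the genes that changed most are shown next, because both arms are textbook SREBP targets and promoters are where such factors bind. RefSeq promoter windows (build GRCm38.p6, 250 bases before to 50 after a start) were found for 28 of the 35 genes. The printed stretches are the 150 bases before the start, read 5′ to 3′ on the gene's strand, of the 7 genes with 1 window that passed the test with an absolute log2 fold change of at least 0.5, from the most raised to the most lowered. Capitals mark matches on either strand to the letters bound by NF-Y (CCAAT) and Sp1 (GGGCGG), both partners of SREBPs, and to an E-box (CACGTG), an AP-1 site (TGANTCA) or the core of a sterol regulatory element (TCACNCCAC).
Hsd17b7: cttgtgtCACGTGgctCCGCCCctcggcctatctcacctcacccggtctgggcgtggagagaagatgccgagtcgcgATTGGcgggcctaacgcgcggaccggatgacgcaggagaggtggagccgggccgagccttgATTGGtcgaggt
Sc5d: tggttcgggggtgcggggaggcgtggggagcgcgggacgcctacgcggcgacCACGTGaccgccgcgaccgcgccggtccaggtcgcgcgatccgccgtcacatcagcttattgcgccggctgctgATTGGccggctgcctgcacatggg
Fasn: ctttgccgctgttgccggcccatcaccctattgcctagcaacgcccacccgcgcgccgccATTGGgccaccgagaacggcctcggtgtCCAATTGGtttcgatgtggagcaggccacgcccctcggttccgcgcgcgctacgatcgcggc
Insig1: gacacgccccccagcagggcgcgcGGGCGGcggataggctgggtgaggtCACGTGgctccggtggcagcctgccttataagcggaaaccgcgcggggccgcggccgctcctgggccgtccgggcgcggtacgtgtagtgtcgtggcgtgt
Elovl6: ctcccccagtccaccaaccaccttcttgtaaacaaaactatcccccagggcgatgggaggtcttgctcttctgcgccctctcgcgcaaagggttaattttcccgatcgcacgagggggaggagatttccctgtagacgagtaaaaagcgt
Acss2: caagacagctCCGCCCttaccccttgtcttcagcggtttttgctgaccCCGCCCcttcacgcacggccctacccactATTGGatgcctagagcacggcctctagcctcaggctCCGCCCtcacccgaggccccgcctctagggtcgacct
Tm7sf2: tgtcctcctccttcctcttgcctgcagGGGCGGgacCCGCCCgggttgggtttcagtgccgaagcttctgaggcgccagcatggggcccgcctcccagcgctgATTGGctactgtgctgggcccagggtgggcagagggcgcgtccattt

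These stretches lie at chr1:169969206-169969355 (minus strand), chr9:42264301-42264450 (minus strand), chr11:120824548-120824697 (minus strand), chr5:28071262-28071411 (plus strand), chr3:129532236-129532385 (plus strand), chr2:155517893-155518042 (plus strand) and chr19:6067851-6068000 (minus strand). Hsd17b7, Sc5d and Fasn, which rose, held 2, 1 and 3 NF-Y matches, of which 2 in Fasn overlap each other as CCAATTGG. Acss2 and Tm7sf2, which fell, held 1 each, and also 3 and 2 Sp1 matches. Hsd17b7 and Insig1 held 1 Sp1 match each, and Hsd17b7, Sc5d and Insig1 1 E-box each. NF-Y and Sp1 letters thus stood in raised and in lowered genes. No match stood in the stretch of Elovl6, and the stretches held no AP-1 or sterol element match. Over the whole windows, NF-Y letters were present in 22 of the 28 genes (78.6%), against 41.1% of 27025 genes with a window, and Sp1 letters likewise in 22 (78.6%), against 38.2%. Of the 11 higher genes with a window 9 held NF-Y letters, and of the 12 lower genes 9 did. AP-1 letters stood in Dhcr7, which fell, and Msmo1, which rose, that is in 7.14% of these genes, against 8.97% of all. The sterol element core stood in Hmgcs1 alone (3.57%, against 1.44% of all), and E-box letters in 6 genes (21.4%, against 8.09%). The 27025 genes were not limited to those with enough reads to be tested, and shares among tested genes alone were not computed. Only exact matches to the given letters were sought, with N as any letter, so sites spelled otherwise were not counted. A match describes the letters in this window only.

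In the sterol arm 8 of 17 tested genes rose (47.1%), 5 fell (29.4%) and the other 4 missed the threshold. Over all genes tested, 33.8% were called higher and 33.3% lower. The median log2 fold change of the arm was 0.21, against -0.01 over all genes tested. Along the first stretch of the pathway, from acetoacetyl-CoA to farnesyl diphosphate, 6 genes were tested, of which 2 rose and 2 fell. Mvd, the decarboxylase that yields isopentenyl diphosphate, had 54.6 and 60.6 CPM in the c-FOS libraries, against 41.3 and 45.1 CPM in the control libraries, a log2 fold change of 0.42 ± 0.06 (SE). Acat2, the cytosolic thiolase that starts the pathway, had 55.9 and 56.4 CPM in the c-FOS libraries, against 41.4 and 48.6 CPM in the control libraries, a log2 fold change of 0.32 ± 0.07; it has a close paralog, Acat3, at 7.38 CPM with c-FOS and 6.22 CPM in control, with which it can share reads. The kinases between these steps were lower. Mvk, mevalonate kinase, had 65 and 62.9 CPM in the c-FOS libraries, against 74.8 and 74.9 CPM in the control libraries, and fell by 0.23 ± 0.04, and Pmvk, phosphomevalonate kinase, had 18.8 and 16.8 CPM in the c-FOS libraries, against 19.6 and 21.8 CPM in the control libraries, and fell by 0.22 ± 0.09 on the log2 scale. The call of Pmvk did not hold without control replicate 2 (-0.14), without c-FOS replicate 2 (-0.14) or in DESeq2 (adjusted p = 0.14).

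Idi1, the isomerase, and Fdps, farnesyl diphosphate synthase, did not pass. Idi1 was at 16.7 and 17 CPM with c-FOS against 13.1 and 15.9 CPM in control and Fdps at 41.3 and 42.1 CPM with c-FOS against 35.6 and 41.2 CPM in control, with log2 fold changes of 0.21 and 0.12. For both genes control replicate 2 lay close to the c-FOS libraries and control replicate 1 below them. Without control replicate 2 both passed as higher (0.37 and 0.23). Of the exon length of Fdps, 26.7% overlaps another annotated gene on the same strand, so its reads may be shared.

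Around squalene, 1 of 3 genes rose, 1 fell and 1 did not pass. Both shares were near those over all genes tested, 33.8% higher and 33.3% lower. Sqle, squalene epoxidase, a rate-limiting enzyme of the later pathway and per kilobase the most abundant transcript of the sterol arm (177 with c-FOS and 137 in control, CPM per kilobase), had 487 and 480.0 CPM in the c-FOS libraries, against 367 and 384 CPM in the control libraries. Its log2 fold change was 0.36 ± 0.04 (SE, edgeR quasi-likelihood adjusted p = 9.41e-07). Lss, the cyclase that closes lanosterol, had 90.6 and 95.7 CPM in the c-FOS libraries, against 97.8 and 112 CPM in the control libraries, and fell by 0.17 ± 0.06; the call did not hold without control replicate 2 (-0.07) or c-FOS replicate 1 (-0.13). Fdft1, squalene synthase, was at 71.8 and 68.5 CPM with c-FOS against 69 and 72.9 CPM in control and did not pass (-0.02); with library totals alone it passed as lower (-0.15). Of its exon length 18.3% overlaps Ctsb on the opposite strand, a gene at 406 CPM with c-FOS and 271 CPM in control, and because the sources used here give no strand setting for the counting, reads of the overlap cannot be told apart.

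From lanosterol to cholesterol 5 of 8 genes rose, 2 fell and 1 did not pass. Over all genes tested, 33.8% were called higher and 33.3% lower. The rises included all 3 enzymes that strip methyl groups from the sterol ring after Cyp51. Hsd17b7, the ketone reductase of that sequence, had 136 and 134 CPM in the c-FOS libraries, against 76.9 and 91.5 CPM in the control libraries. Its log2 fold change of 0.68 ± 0.06 (SE, edgeR quasi-likelihood adjusted p = 2.62e-07) was the highest of the 34 genes. Msmo1, the oxidase of the sequence, had 182 and 182 CPM in the c-FOS libraries, against 126 and 148 CPM in the control libraries, a log2 fold change of 0.41 ± 0.06, and Nsdhl, its dehydrogenase, had 55.2 and 56.2 CPM in the c-FOS libraries, against 45.4 and 51.3 CPM in the control libraries, a log2 fold change of 0.21 ± 0.06. For Hsd17b7 and Msmo1 the c-FOS libraries agreed closely, while control replicate 1 was below control replicate 2. The call of Nsdhl was lost with library totals alone (0.07) and without c-FOS replicate 2 (edgeR adjusted p = 0.0573).

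The late steps that rearrange double bonds were split between their enzymes. Sc5d, which introduces a ring double bond, had 87.8 and 85.3 CPM in the c-FOS libraries, against 52.3 and 58.4 CPM in the control libraries, a log2 fold change of 0.64 ± 0.05 (SE, edgeR quasi-likelihood adjusted p = 1e-07). Ebp, the sterol isomerase before it, had 38.7 and 37.8 CPM in the c-FOS libraries, against 29.6 and 29.3 CPM in the control libraries, a log2 fold change of 0.37 ± 0.06. Dhcr7, which makes cholesterol from the product of Sc5d, had 44.8 and 42.2 CPM in the c-FOS libraries, against 49 and 51.5 CPM in the control libraries, and fell by 0.21 ± 0.05; without c-FOS replicate 2 the fall did not pass (-0.16). The ratio of Sc5d to Dhcr7 per kilobase was accordingly 2.45 and 2.53 with c-FOS, against 1.34 and 1.42 in control. Cyp51, which demethylates lanosterol, was at 297 and 295 CPM with c-FOS against 288 and 334 CPM in control and did not pass (-0.07). Its control libraries lay on either side of the c-FOS libraries, and it passed as lower without control replicate 1 (-0.17), with upper-quartile factors (-0.13) and with library totals alone (-0.21).

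Tm7sf2, a sterol reductase of this stretch, had the lowest fold change. It was at 1.47 and 1.39 CPM in the c-FOS libraries, against 3.46 and 2.91 CPM in the control libraries, and fell by 1.15 ± 0.19 (SE) on the log2 scale (edgeR quasi-likelihood adjusted p = 0.000121); the call held in the 12 alternatives run. It was the scarcest tested transcript of the arm per kilobase, at 0.975 CPM per kilobase with c-FOS and 2.17 in control, and 12.1% of its exon length overlaps Vps51 on the same strand. Lbr, the lamin B receptor, catalyses the same reduction and was the more abundant transcript per kilobase (9.49 with c-FOS and 17.1 in control, CPM per kilobase). Lbr had 36.2 and 31 CPM in the c-FOS libraries, against 56.4 and 64.3 CPM in the control libraries, and fell by 0.85 ± 0.08. Both genes for this step were thus lower with c-FOS. Stard4, a cytosolic carrier that moves sterol between membranes, had 86.1 and 93.5 CPM in the c-FOS libraries, against 104 and 113 CPM in the control libraries, and fell by 0.27 ± 0.05.

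**Figure D2:**
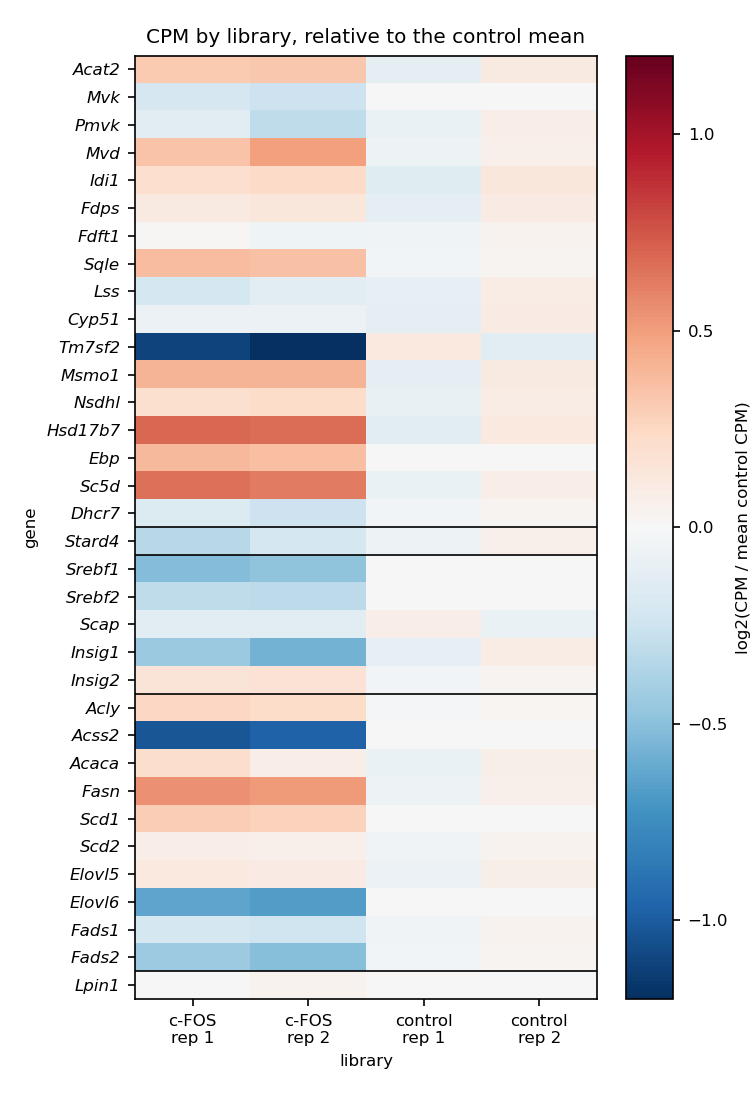
Level of each tested gene in each library as log2 of its CPM over the mean CPM of the 2 control libraries (colour), with the c-FOS libraries in the left columns and lines between the sterol arm, Stard4, the SREBP regulators, the fatty acid arm and Lpin1. The c-FOS columns look alike, whereas in the sterol arm control replicate 1 lies below control replicate 2 for 15 of 17 genes.

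The fatty acid arm had 4 of 10 genes higher (40%), 4 lower (40%) and 2 that did not pass. Over all genes tested, 33.8% were called higher and 33.3% lower. The arm's median log2 fold change was 0.09. Among the enzymes that supply and assemble the chain, Fasn, fatty acid synthase, had 893 and 868 CPM in the c-FOS libraries, against 584 and 636 CPM in the control libraries. Its log2 fold change was 0.53 ± 0.04 (SE, edgeR quasi-likelihood adjusted p = 8.52e-08). Acly, which releases acetyl-CoA from citrate, had 394 and 388 CPM in the c-FOS libraries, against 327 and 337 CPM in the control libraries, a log2 fold change of 0.24 ± 0.04. Acaca, the carboxylase that commits acetyl-CoA to fatty acids, had 60.9 and 55.6 CPM in the c-FOS libraries, against 49.9 and 55.3 CPM in the control libraries, a log2 fold change of 0.14 ± 0.06. One control library nearly reached the lower c-FOS library for Acaca, and its call was lost in 6 of the 12 alternatives, with log2 fold changes of 0.01 with library totals alone, 0.08 with upper-quartile factors, 0.14 with a minimum count of 50, 0.07 without control replicate 1, 0.08 without c-FOS replicate 1 and 0.15 in DESeq2.

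Acss2, the other cytosolic source of acetyl-CoA, which makes it from acetate, moved the opposite way to Acly. It had 8.59 and 8.91 CPM in the c-FOS libraries, against 17.6 and 17.5 CPM in the control libraries, and fell by 1.00 ± 0.09 (SE) on the log2 scale (edgeR quasi-likelihood adjusted p = 1.63e-07). Per kilobase, the ratio of Acss2 to Acly was 0.0338 and 0.0357 in the c-FOS libraries, against 0.0833 and 0.0805 in the control libraries. Gss lies opposite to 3.89% of the exon length of Acss2 and was at 67.5 CPM with c-FOS and 63.9 CPM in control.

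The stearoyl-CoA desaturases, which place the first double bond, were higher or did not pass. Scd1 had 544 and 538 CPM in the c-FOS libraries, against 441 and 445 CPM in the control libraries, a log2 fold change of 0.29 ± 0.03. Scd2 was by far the most abundant transcript of both arms, at 656 CPM per kilobase with c-FOS and 625 in control, and made up 58.2% of the summed CPM (not per length) of the fatty acid arm with c-FOS and 59.4% in control. It was at 3596 and 3547 CPM with c-FOS against 3302 and 3497 CPM in control and did not pass (0.07), but passed as higher without control replicate 2 (0.11). The stearoyl-CoA desaturase genes are close in sequence and may share reads.

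Among the enzymes that lengthen chains or desaturate them further, Elovl6, Fads1 and Fads2 were lower and Elovl5 did not pass. Elovl6, which elongates palmitate, had 101 and 98.5 CPM in the c-FOS libraries, against 157 and 156 CPM in the control libraries. It fell by 0.65 ± 0.04 (SE, edgeR quasi-likelihood adjusted p = 3.13e-09), and the control libraries agreed within less than 1 CPM. Fads2 and Fads1, the desaturases of polyunsaturated fatty acids, stand next to each other in the genome and were both lower. Fads2 had 219 and 209 CPM in the c-FOS libraries, against 290.3 and 304 CPM in the control libraries, and fell by 0.47 ± 0.04, and Fads1 had 302 and 297 CPM in the c-FOS libraries, against 342 and 360.4 CPM in the control libraries, and fell by 0.23 ± 0.04. Elovl5, which elongates polyunsaturated chains, was at 68.6 and 67.9 CPM with c-FOS against 60.3 and 66.5 CPM in control and did not pass (0.11); without control replicate 2 it passed as higher (0.18). The ratio of Elovl6 to Elovl5 per kilobase was 0.685 and 0.677 with c-FOS, against 1.21 and 1.10 in control. Lpin1, a phosphatidate phosphatase of glycerolipid synthesis that also acts in the nucleus, was at 9.85 and 10.1 CPM with c-FOS against 9.79 and 9.87 CPM in control and did not pass (0.02).

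Set side by side, both arms summed to more in each c-FOS library than in each control library with TMM scaling, but not with library totals alone. The sterol arm summed to 1744 and 1735 CPM in the c-FOS libraries, against 1431 and 1583 CPM in the control libraries, a ratio of group means of 1.15. The fatty acid arm summed to 6189 and 6078 CPM with c-FOS, against 5571 and 5876 CPM in control, a ratio of 1.07, or 1.10 without Scd2 (2592 and 2531 CPM with c-FOS, against 2268 and 2379 CPM in control). The median log2 fold change was 0.21 in the sterol arm and 0.09 in the fatty acid arm. Of the called genes, 8 of 13 (61.5%) were higher in the sterol arm and 4 of 8 (50%) in the fatty acid arm. Over all called genes the share was 50.3%, so that of the fatty acid arm was near it. With library totals alone the sterol arm summed to 1662 and 1655 CPM of the unscaled totals with c-FOS, against 1498 and 1662 in control, a ratio of 1.05. The fatty acid arm then summed to 5896 and 5799 with c-FOS, against 5832 and 6169.9 in control, a ratio of 0.974, or 1.00 without Scd2. The groups overlapped in both arms under that scaling. With library totals alone the medians were 0.07 and -0.05 and the split of called sterol genes was 7 higher and 7 lower, while the median of all genes tested shifted to -0.14, against -0.01. Relative to that median both arms stood where they did before, at 0.21 and 0.09 above it. The difference between the arms has no test, since the members were chosen by name and are not replicates.

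**Figure D3:**
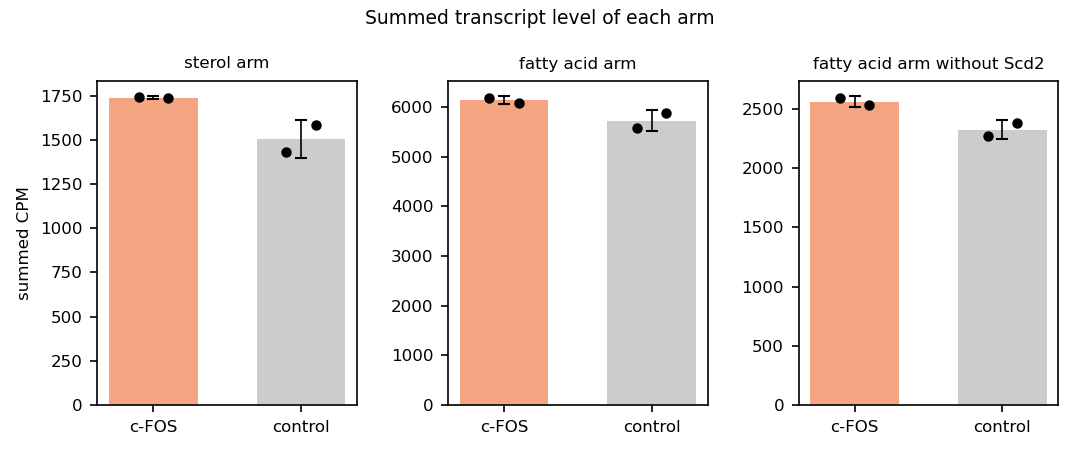
Summed CPM of the sterol arm, the fatty acid arm and the fatty acid arm without Scd2 (vertical axes, each from 0), with c-FOS at left and control at right; bars are means, error bars SD (n = 2) and points single libraries. The c-FOS points (1744 and 1735 CPM in the sterol arm) lie above the control points (1431 and 1583 CPM) with TMM scaling, which library totals alone do not keep (ratios of 1.05 and 0.974 for the arms), and the control points are wider apart.

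That spread between the control libraries bears on the sterol arm. Control replicate 1 was below control replicate 2 for 15 of 17 tested sterol genes and for 8 of 10 fatty acid genes, where 6391 of all 12791 genes tested were. The median absolute log2 difference between the control libraries was 0.18 in the sterol arm, against 0.08 over all genes tested, while between the c-FOS libraries it was 0.03 in the sterol arm, against 0.06 over all genes tested. The median log2 fold change of the sterol arm was 0.08 when control replicate 1 was left out and 0.30 when control replicate 2 was, and that of the fatty acid arm 0.04 and 0.15. Of the 27 calls, 20 held with their direction in each of the 12 alternatives run, among them Hsd17b7, Sc5d, Sqle, Msmo1, Fasn, Scd1, Srebf1, Srebf2, Insig1, Elovl6, Fads1, Fads2, Acss2 and Tm7sf2. The same share over all called genes was not computed.

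Genes of the same pathways outside the named members were divided too. Of 10 further genes of sterol and isoprenoid synthesis, 5 rose (50%) and 4 fell (40%), where 33.8% of all genes tested were called higher and 33.3% lower, and their median log2 fold change was 0.13. Ggps1, which makes the geranylgeranyl diphosphate of prenylated proteins, had 80.6 and 77.3 CPM in the c-FOS libraries, against 53.6 and 57.7 CPM in the control libraries, a log2 fold change of 0.50 ± 0.05 (SE). Besides Lbr, the lower genes included Acat1, the mitochondrial thiolase, which had 18.4 and 18.2 CPM in the c-FOS libraries, against 38.6 and 37.6 CPM in the control libraries, and fell by 1.06 ± 0.07 where its cytosolic counterpart Acat2 rose, and Pdss1, an enzyme of the ubiquinone side chain, which fell by 0.79 on the log2 scale.

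Of 14 tested transcripts for taking up, exporting and storing sterol, 8 rose (57.1%) and 4 fell (28.6%), where 33.8% of all genes tested were called higher and 33.3% lower, and their median log2 fold change was 0.29. Abcg1, a sterol exporter, had 19.2 and 19.2 CPM in the c-FOS libraries, against 6.09 and 6 CPM in the control libraries, a log2 fold change of 1.67 ± 0.09 (SE), and its relative Abca1 rose by 0.32 on that scale. Soat1, which esterifies cholesterol for storage, had 36.5 and 35.2 CPM in the c-FOS libraries, against 18 and 18.8 CPM in the control libraries, a log2 fold change of 0.96 ± 0.07. The apolipoprotein E receptor gene Lrp8 rose by 0.76 on the log2 scale, whereas Apoe, scarce in these cells at 1.38 CPM with c-FOS and 2.83 CPM in control, fell by 1.04 on the log2 scale.

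The machinery that cleaves or degrades SREBP regulators had 7 of 11 tested genes higher and the other 4 did not pass, so 63.6% were called, against 67.1% of all genes tested, of which 33.8% were called higher. The median log2 fold change was 0.34. Mbtps1, the Golgi protease that makes the first cut in SREBPs, had 426 and 434 CPM in the c-FOS libraries, against 329 and 318 CPM in the control libraries, a log2 fold change of 0.41 ± 0.04 (SE). Mbtps2, the protease of the second cut, was at 49.1 and 47.8 CPM with c-FOS against 48.8 and 54.4 CPM in control and did not pass (-0.09); it passed as lower with library totals alone (-0.23), with upper-quartile factors (-0.15) and without control replicate 1 (-0.17). Fbxw7, the ligase adaptor that removes nuclear SREBPs among other substrates, had 46.4 and 45.6 CPM in the c-FOS libraries, against 28.6 and 29.6 CPM in the control libraries, a log2 fold change of 0.66 ± 0.06, and Ufd1, a partner in extracting ubiquitinated proteins from the membrane, rose by 0.48 on the log2 scale.

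Among 21 further genes of fatty acid synthesis, 6 rose, 4 fell and 11 did not pass (median 0.07), so 47.6% were called, against 67.1% of all genes tested. Elovl7, another elongase, had 53.3 and 54.3 CPM in the c-FOS libraries, against 28.6 and 30.6 CPM in the control libraries, a log2 fold change of 0.86 ± 0.06 (SE), and Me1, the malic enzyme that supplies reducing power, rose by 0.48 on the log2 scale. The scarce transcripts Hacd4 (0.899 and 1.1 CPM with c-FOS against 0.168 and 0.607 CPM in control) and Fads6 (2.16 and 1.45 CPM with c-FOS against 1.18 and 0.862 CPM in control) were called higher, with log2 fold changes of 1.34 and 0.81. Neither call held in DESeq2 (adjusted p = 0.0716 and 0.101), nor that of Hacd4 without control replicate 1 (0.72) or c-FOS replicate 2 (1.19), nor that of Fads6 without control replicate 2 (0.60) or c-FOS replicate 1 (0.52).

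**Figure D4:**
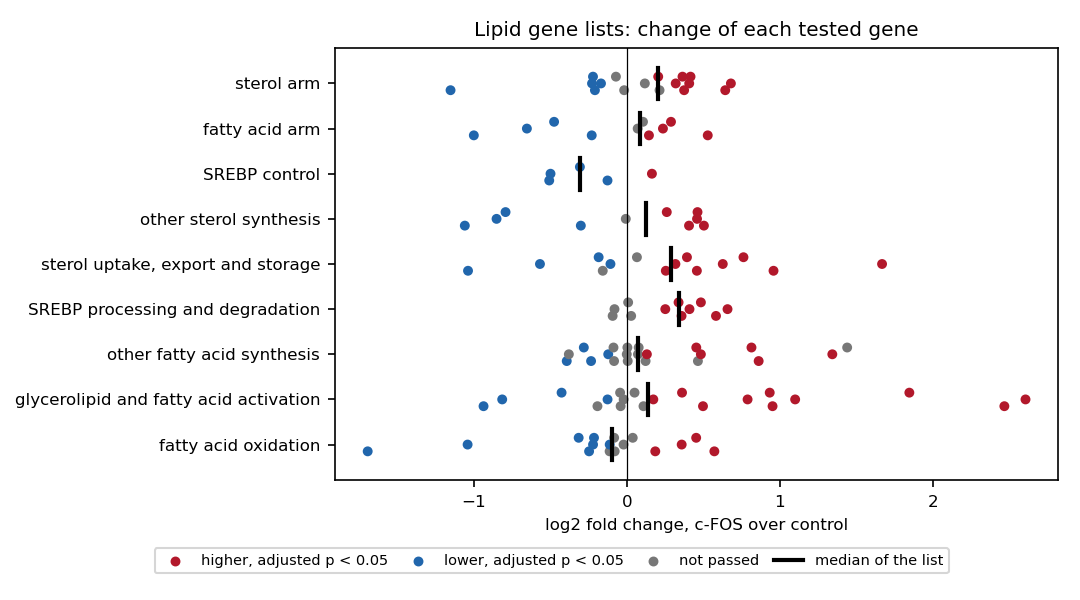
Log2 fold change (c-FOS over control, horizontal axis) of each tested gene in 9 lipid gene lists, coloured by call, with a black bar at the list median. The medians run from -0.31 (SREBP control) to 0.34 (SREBP processing and degradation), and every list except SREBP processing and degradation holds called genes on both sides of 0.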

How the data were processed

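RNA-seq was made from 4 libraries of ASZ001 cells with the Illumina TruSeq kit, per the labels' protocols. Per the series design text and the submitters' processing notes, reads were processed with TopHat and then HOMER, DESeq2 was among the tools and the build was mm9; the sources used here give no versions, annotation or strand setting. The authors deposited 1 table of unnormalized estimated counts per gene symbol, in steps of 0.5, with a gene model length in bases. It had 24909 rows; where a symbol stood on more than 1 row, the row with the highest total was kept, which left 24907 genes.

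After rounding to whole numbers, c-FOS was compared with control in edgeR 4.0.16 (R 4.3.3) by its two-sided quasi-likelihood test with no covariate. TMM gave the scaling factors, filterByExpr (count of at least 10, total of at least 15) chose the 12791 genes tested, and p-values were adjusted over them by Benjamini-Hochberg, with a threshold of 0.05. CPM uses the TMM-scaled library size; errors are SD (n = 2) for CPM and SE from the F statistic for log2 fold changes. The fit had 2 residual degrees of freedom and borrowed information across genes (prior degrees of freedom 11.3). The alternatives were RLE factors, library totals, upper-quartile factors, no or a stricter filter (minimum count 50), rounding down, DESeq2 1.42.0, each library left out (a lone library is then assumed to vary like the other group) and a replicate block.

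Members and lists were chosen with earlier results of these data known. Every member is named; the rule asked for the value in each library for regulators, for members past the threshold with an absolute log2 fold change of at least 0.5 and for up to 5 others per group, and the text gives it for all tested members. From other lists up to 4 called genes with the largest change are named, with Mbtps1, Mbtps2 and Abca1; some genes that this rule picks are not reported here. Older list symbols were matched through RefSeq synonyms. The reference annotation is a later build than mm9, so it gave names, strands, overlaps and promoter letters and no coordinates for counts. The libraries within a group were more different than counting error alone allows (chi-square per degree of freedom 1.96 for c-FOS and 4.93 for control) and were counted singly. Library totals were 29200592 and 32465409 for c-FOS and 28405433 and 29822437.5 for control.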

Additional observations from a re-analysis of the deposited data

How the results depend on the processing

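The counts of all genes called higher and lower stayed within 1.5 times under the 12 alternatives: 3698 to 4520 higher and 3481 to 4358 lower with a library left out, and 3217 higher and 5879 lower with library totals alone (35.4% of calls higher, against 50.3%). The median log2 fold change of all members, 0.05, was -0.089 with library totals alone and -0.014 under upper-quartile scaling, and ran from 0.020 to 0.078 with a library left out. That of the sterol arm, 0.21, was 0.068 with library totals and ran from 0.082 to 0.30 with a library left out. That of the fatty acid arm, 0.09, was -0.049 with library totals and 0.026 under upper-quartile scaling, and ran from 0.035 to 0.15 with a library left out. The number of lower sterol genes, 5, ran from 3 to 6 with a library left out. By construction library totals shift all log2 fold changes down together; for the other settings the cause was not tested.

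Genes that had not passed changed sign in some settings: with library totals alone Fdps (-0.019), Scd2 (-0.066), Elovl5 (-0.031) and Lpin1 (-0.11), which also did so under upper-quartile scaling (-0.038). With a library left out Fdft1 ranged from -0.056 to 0.025 and Cyp51 from -0.17 to 0.041. No called member changed sign in any alternative run. The replicate numbers do not pair the libraries by their labels, and the deviations of same-numbered libraries from their group means correlated at -0.084 over 12791 genes. With the replicate block 4246 genes were higher and 4218 lower, and among the members the calls were those of the fit without it, except that Idi1 passed as higher (0.22, edgeR adjusted p = 0.0385). The number of libraries, 2 a group, and depth both limit precision. Tm7sf2, at 41 to 103 deposited counts, is the thinnest called member.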

Other observations

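Among the genes of the 9 lipid lists, Mgll and Plin2, which act on stored lipid, had the largest changes. Of 20 tested genes that activate fatty acids or build, coat and break down glycerolipids, 10 rose (50%), 4 fell (20%) and 6 did not pass. The 70% called were near the 67.1% of all genes tested, of which 33.8% were called higher and 33.3% lower. Plin2, which coats lipid droplets, had 614 and 631 CPM in the c-FOS libraries, against 114 and 111 CPM in the control libraries, a log2 fold change of 2.47 ± 0.04 (SE, edgeR quasi-likelihood adjusted p = 5.04e-15). Mgll, the lipase that ends triglyceride breakdown, had 141 and 146 CPM in the c-FOS libraries, against 23.1 and 24.1 CPM in the control libraries, a log2 fold change of 2.61 ± 0.05. Gpat3, an acyltransferase at the start of triglyceride synthesis, had 22 and 21.4 CPM in the c-FOS libraries, against 5.68 and 6.35 CPM in the control libraries, and rose by 1.85 on the log2 scale, and Acsl1, which activates long fatty acids, had 45.1 and 47.6 CPM in the c-FOS libraries, against 22.1 and 21.2 CPM in the control libraries, and rose by 1.10. The summed level of the list was 2224 and 2243 CPM with c-FOS, against 1338 and 1326 CPM in control. Most of the difference was 1 gene, Plin2 (mean 623 CPM with c-FOS and 113 CPM in control). The list's median log2 fold change was 0.14.

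Of 16 tested genes of fatty acid oxidation, 4 rose (25%), 7 fell (43.8%) and 5 did not pass. The 68.8% called were near the 67.1% of all genes tested, of which 33.8% were called higher and 33.3% lower. The median log2 fold change of the oxidation genes was -0.10. Ppargc1a, a coactivator of mitochondrial genes, had 23.6 and 24.2 CPM in the c-FOS libraries, against 77.8 and 76.7 CPM in the control libraries, and fell by 1.69 ± 0.05 (SE) on the log2 scale, the lowest value in the lipid lists. Cpt1b, the muscle form of the carnitine transferase, was scarce (1.15 and 0.775 CPM with c-FOS against 2.08 and 1.85 CPM in control) and fell by 1.04. Acadvl, the dehydrogenase for very long chains, rose by 0.45 on the log2 scale.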
